A study of Mus musculus with 51 samples.

Results

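The zymosan response of wild-type ER-Hoxb8 neutrophils was followed in 4 of the 51 samples of the series, the polyadenylated RNA libraries of set 1. Both zymosan libraries came from wild-type (WT) cells differentiated in culture for 5 days and then given zymosan at 50 µg/ml for 2 h. Both control libraries came from the same kind of cells kept for 2 h with the DMSO vehicle; the treatment label gives 2 h for these controls, while their sample titles read 0 h. The members were taken by the labels for phenotype, treatment and count table, and not by any measured value. A second pair of WT zymosan libraries and a second pair of WT DMSO libraries, prepared as set 2 with the same labels, served for comparison. CEBPB-/- and JUNB-/- cells of set 1 and IRF5-/- and RELB-/- cells of set 2, each with zymosan or DMSO in 2 libraries, entered the fits of their set to estimate the spread and are not described here. The series as a whole set neutrophils of the mouse air pouch beside these cultured cells, to ask which transcription factors steer inflammatory gene activity.

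ER-Hoxb8 cells are mouse myeloid progenitors held in division by an estrogen-controlled HOXB8 protein. Once estradiol is withdrawn, they mature in G-CSF and stem cell factor into cells that resemble neutrophils, the short-lived phagocytes that reach infected tissue first. They remain a cultured line rather than cells taken from a mouse. Zymosan is a yeast cell wall particle. It engages dectin-1 (Clec7a), which signals through Syk and the Card9, Bcl10 and Malt1 complex, and Toll-like receptor 2, which signals through Myd88. Both routes release NF-kB dimers from their IkB inhibitors and activate AP-1 factors. The genes these factors switch on include cytokines, chemokines and the inhibitors that later end the response.

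The 4 libraries held 22242143 and 28012996 assigned read pairs with zymosan, against 26525051 and 24134547 with DMSO. The set 2 WT libraries held 26774295 and 28624302 with zymosan, against 27288746 and 30119102 with DMSO. Levels are given as CPM, read pairs per fixed library total, scaled by the trimmed mean of M values (TMM), and each pair of values gives library 1 and library 2 of a group. Changes are log2 ratios of zymosan over DMSO from edgeR's quasi-likelihood test. A gene is called where its Benjamini-Hochberg adjusted p is under 0.05. The standard error (SE) is the size of the change divided by the square root of the test's F statistic. For large changes of genes with few reads in one group, this SE can understate even the counting error. Replicates ranked the genes nearly alike, with a Spearman correlation across genes of 0.996 between the zymosan libraries and 0.998 between the DMSO libraries. The labels do not say whether libraries of a group came from separate cultures, so p-values measure the spread between these libraries, which may be technical. Scaling matters here: the TMM factors were 0.984 and 0.993 for zymosan, against 1.602 and 1.613 for DMSO. With TMM the median log2 change over all genes tested was -0.07, and with library totals as the only scaling it was -0.77, so small rises on the first scale are falls on the second. The changes below are therefore relative to the bulk of genes, and groups of genes that turn round by library totals alone are marked.

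Zymosan changed most of the measured transcriptome within 2 h. Of 12899 genes tested, 9751 (75.6%) were called, 4608 higher (35.7%) and 5143 lower (39.9%) with zymosan. At least 2-fold changes that were also called numbered 4720 (36.6%), of which 2481 were higher (19.2%) and 2239 lower (17.4%). With TMM, large changes were mostly rises. Past 4-fold there were 1112 rises and 478 falls, past 16-fold 328 rises and 36 falls, and past 32-fold 180 rises and 12 falls. By library totals alone, called changes of at least 2-fold were 1395 rises and 5185 falls. The higher share of all called genes was 47.3%, against 22.6% by library totals alone. In bulk RNA, fewer cells of a type and less RNA per cell cannot be told apart. Libraries of the groups did not overlap in 11220 of the genes tested (86.94%). Given these background shares, a call or a lack of overlap by itself says little about a gene. The size of the change is what separates the genes named here. Counts of a list below stand beside the shares over all genes, 19.2% higher and 17.4% lower by at least 2-fold.

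**Figure D1:**
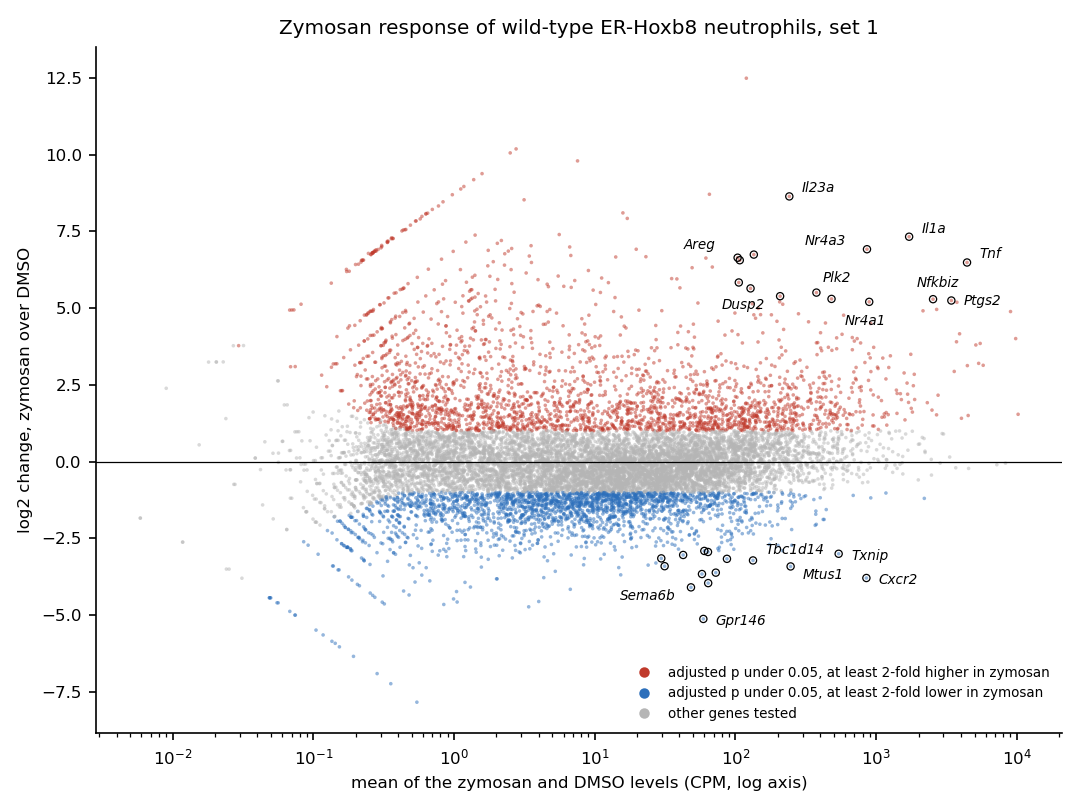
Each point is 1 of the 12899 genes tested, with the mean of its zymosan and DMSO levels (CPM, log axis) across and its log2 change (zymosan over DMSO) upward. Red points are called and at least 2-fold higher with zymosan, and blue points called and at least 2-fold lower. Circles mark the 15 largest rises and 15 largest falls among genes with a mean log2 CPM of at least 4, some of them named. The rises reach further from 0 than the falls. Straight rows of points at low levels are genes with no read in one group.

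Genes were ranked by change if their mean log2 CPM over the 4 libraries was at least 4. That bound leaves out genes almost silent with DMSO, such as Csf3, which rose more and is given below. Among the ranked genes, the 15 with the largest rise included cytokine, nuclear receptor and phosphatase genes. Il23a, a subunit of interleukin-23, led them with 500.0 and 463 CPM in the zymosan libraries, against 1.11 and 1.31 CPM in the DMSO libraries. Il1a, encoding interleukin-1 alpha, stood at 3484 and 3333 CPM with zymosan and 20.95 and 21.6 CPM with DMSO. Tnf, encoding tumour necrosis factor, stood at 8897 and 8604 CPM with zymosan and 95.4 and 100.1 CPM with DMSO. In all 3 genes the libraries of a group lay close together and the groups were far apart. Their log2 changes were 8.64 ± 0.072, 7.32 ± 0.044 and 6.48 ± 0.039 (SE), with adjusted p of 1.6e-64, 3.7e-71 and 3.7e-71. The nuclear receptor gene Nr4a3 (6.92), the epidermal growth factor family ligand Areg (6.64), the cytokine Lif (6.56), the phosphatase genes Dusp4 (5.83) and Dusp2 (5.39) and the kinase gene Plk2 (5.504) were among the others. So were Bcl2a1d (5.64), Ccl4 (5.298), Nfkbiz (5.29), Ptgs2 (5.25), Nr4a1 (5.203) and Gm6377 (6.74).

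The 15 largest falls were smaller than the 15 largest rises and included receptor genes. The orphan receptor gene Gpr146 was at 3.66 and 2.99 CPM with zymosan, against 113 and 116 CPM with DMSO. Cxcr2, the chemokine receptor through which neutrophils answer Cxcl1 and Cxcl2, was at 114 and 115 CPM with zymosan, against 1591 and 1588 CPM with DMSO. Txnip, which binds thioredoxin and curbs glucose uptake, was at 125 and 115 CPM with zymosan, against 969.5 and 955 CPM with DMSO. Both zymosan libraries were far below both DMSO libraries in each of these genes, with log2 changes of -5.13 ± 0.077, -3.79 ± 0.036 and -3.003 ± 0.037. The semaphorin gene Sema6b (-4.098), the NOD-like receptor genes Nlrp12 (-3.66) and Nlrx1 (-3.04), the peroxisomal transporter gene Abcd2 (-3.41) and the transcription factor gene Usf1 (-3.15) also fell. The others of these 15 were Zfp710, Mtus1, Tbc1d14, Chsy1, Tor4a, AI467606 and D1Ertd622e, between -3.96 and -2.91.

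Members of the pathway that senses zymosan moved in both directions. Of 18 tested genes for zymosan receptors and the Syk-Card9 relay, 7 were at least 2-fold higher and 1 lower, and by library totals alone 4 were higher and 2 lower. The list's median was 0.24, and -0.46 by library totals alone. Clec4e, encoding the C-type lectin Mincle, stood at 8107 and 7855 CPM with zymosan, against 928 and 902 CPM with DMSO. Malt1, the protease of the Card9 complex, stood at 898 and 895 CPM with zymosan, against 72.2 and 73.3 CPM with DMSO. Groups did not overlap in either gene, with log2 changes of 3.13 ± 0.033 and 3.62 ± 0.039. Clec4d (1.93), Clec4n (1.85), which encodes dectin-2, Tlr2 (1.53), its partner Tlr6 (1.27) and Bcl10 (1.31) rose as well.

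The receptor and adaptor that give the pathway its name did not follow. Card9 was at 63.98 and 62.6 CPM with zymosan, against 167 and 179.7 CPM with DMSO, a log2 change of -1.45 ± 0.043. Clec7a itself was at 591 and 549 CPM with zymosan and 422 and 409.6 CPM with DMSO, a log2 change of 0.46 that was -0.25 by library totals alone. Syk changed by 0.22, and by -0.48 by library totals alone. Itgam and Itgb2, the chains of complement receptor 3, did not pass the test, with log2 changes of 0.033 and 0.067; by library totals alone both were called lower, at -0.67 and -0.64, and with relative log expression (RLE) scaling both were called higher, at 0.16 and 0.19. Without DMSO library 2, Itgb2 was called higher at 0.12. Cd36 had too few reads to be tested. The other members, Fcer1g (0.27), Prkcd (-0.075), Lyn (-0.17), Plcg2 (-0.27) and Vav1 (-0.297), changed little. Tlr1, the other partner of Tlr2, fell by 0.65 on the log2 scale.

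The Toll-like receptor relay also moved both ways, near the shares over all genes. Of 21 tested genes 5 were at least 2-fold higher and 4 lower, against 19.2% and 17.4% of all genes, with a median of 0.12. By library totals alone 5 were higher and 7 lower, with a median of -0.59. Cd14, the co-receptor for microbial lipids, stood at 6470.3 and 6222 CPM with zymosan, against 829 and 829.6 CPM with DMSO. Its zymosan libraries were both several times the DMSO libraries, with a log2 change of 2.94 ± 0.033. Tlr9 (3.09) and Tlr7 (2.37), sensors of nucleic acids, the kinase gene Map3k8 (2.68) and Irak2 (2.34) rose too. Tab1, an activator of the kinase TAK1, was at 2.195 and 2.41 CPM with zymosan, against 9.53 and 11.6 CPM with DMSO. With Tab1, the other 3 genes that fell by at least 2-fold were Irak4, Tlr8 and Tirap, named here after their values were seen, at -2.17, -2.05 and -1.96.

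NF-kB genes rose almost as a block. NF-kB is a family of dimers of Rel proteins held inactive by IkB proteins, and several of these genes are known targets of NF-kB itself. Of 11 tested genes for NF-kB subunits and IkB proteins, 10 were at least 2-fold higher and 0 lower, with a median log2 change of 2.89 against -0.07 over all genes. The promoters of 4 genes known as NF-kB targets are shown first, chosen among genes that rose because each holds a match to the NF-kB motif. Windows run from 250 bases before to 50 after the gene start on the gene's own strand, from RefSeq for GRCm38.p6, and capitals mark matches to the NF-kB consensus (called by its name, searched on both strands). Where a match on one strand overlaps one on the other, the run of capitals covers both.
Nfkbia, chr12:55492598-55492897, minus strand: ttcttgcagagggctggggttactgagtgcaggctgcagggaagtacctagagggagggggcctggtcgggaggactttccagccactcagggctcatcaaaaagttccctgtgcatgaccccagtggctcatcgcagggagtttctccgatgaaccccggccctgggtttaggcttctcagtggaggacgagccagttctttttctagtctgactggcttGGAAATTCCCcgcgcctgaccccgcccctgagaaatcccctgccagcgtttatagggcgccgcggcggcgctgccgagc
Nfkb2, chr19:46304487-46304786, plus strand: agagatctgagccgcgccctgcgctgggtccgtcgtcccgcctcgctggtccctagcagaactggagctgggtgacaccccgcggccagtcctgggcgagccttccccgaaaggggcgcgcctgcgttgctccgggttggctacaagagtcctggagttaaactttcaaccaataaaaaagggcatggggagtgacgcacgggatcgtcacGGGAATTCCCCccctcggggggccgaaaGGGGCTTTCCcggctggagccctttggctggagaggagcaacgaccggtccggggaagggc
Tnfaip3, chr10:19015361-19015660, minus strand: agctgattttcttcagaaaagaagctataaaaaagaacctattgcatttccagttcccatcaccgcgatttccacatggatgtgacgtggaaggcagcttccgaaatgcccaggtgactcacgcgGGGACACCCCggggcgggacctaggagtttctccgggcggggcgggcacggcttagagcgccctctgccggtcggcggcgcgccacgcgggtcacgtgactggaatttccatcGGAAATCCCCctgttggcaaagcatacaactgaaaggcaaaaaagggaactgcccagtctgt
Cxcl2, chr5:90903649-90903948, plus strand: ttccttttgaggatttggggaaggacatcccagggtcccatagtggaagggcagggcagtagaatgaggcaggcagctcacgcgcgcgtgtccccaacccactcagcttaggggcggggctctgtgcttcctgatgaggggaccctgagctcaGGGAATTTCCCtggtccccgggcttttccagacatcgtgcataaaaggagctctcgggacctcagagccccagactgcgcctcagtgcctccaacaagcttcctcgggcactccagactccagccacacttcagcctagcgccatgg
The chemokine genes Cxcl1, Cxcl2 and Cxcl3, neighbours on chromosome 5, hold the same letters GGGAATTTCC on the gene strand, starting 71, 97 and 73 bases before the start. Of all 32851 promoters of that table, 8.46% hold a match to the consensus, 7.81% hold the AP-1 motif TGANTCA and 1.63% hold the CArG box bound by serum response factor, on either strand. Of the 11 NF-kB genes tested 8 had a promoter in the table and 5 of these held a match, among them Bcl3, which did not pass the test, while Rela, Nfkbib and Nfkbid held none. Of the 15 largest rises 11 had a promoter and 2 held a match, and of the 15 largest falls 12 had a promoter and 2 held a match. Of tested cytokines 16 had a promoter and 7 held a match, of chemokines 10 and 5, and of feedback inhibitors 17 and 5. These counts take 1 promoter a gene, while the share over all promoters takes every listed start, so they were not compared. The start used lay a median of 12 bases from the gene start of the counts. It lay 10879 bases away for Tbc1d14, counted among the falls, and 65085 bases away for Tnip3, counted among the feedback inhibitors. A match is a string of letters and not a measured binding site.

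Nfkbia, which encodes the inhibitor IkB alpha, was at 2847 and 2719 CPM with zymosan, against 378 and 375 CPM with DMSO. Nfkb2, which encodes the p100 precursor, was at 1252 and 1239 CPM with zymosan, against 189 and 204 CPM with DMSO. Nfkbiz, which encodes the nuclear cofactor IkB zeta, was at 4959.8 and 4933 CPM with zymosan, against 127 and 126 CPM with DMSO. The groups were fully apart in these 3 genes, with log2 changes of 2.89 ± 0.033, 2.66 ± 0.036 and 5.29 ± 0.036. Rel (3.92), Nfkbid (3.86), Nfkbib (3.36), Nfkb1 (2.92) and Nfkbie (2.52) rose by similar amounts. Relb (1.67) and Rela (1.005) rose less. Bcl3, at 124 and 115 CPM with zymosan and 119.6 and 135 CPM with DMSO, did not pass the test at -0.091, though it was called lower at -0.16 without DMSO library 1 and at -0.14 without zymosan library 1.

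AP-1 and its relatives rose with one exception. Of 15 tested AP-1, MAF and ATF genes, 11 were at least 2-fold higher and 1 lower, with a median of 2.32. Fosl1, a Fos family subunit, stood at 100.1 and 110.4 CPM with zymosan, against 2.92 and 2.96 CPM with DMSO. Maff, a small MAF factor, stood at 1175 and 1091 CPM with zymosan, against 42.4 and 40.7 CPM with DMSO. Both genes were low in both DMSO libraries, with log2 changes of 5.16 ± 0.074 and 4.77 ± 0.044. Atf3 (3.31), Mafk (2.69), Jdp2 (2.66) and Fosb (2.46) rose too. Fos, the one member that fell by at least 2-fold, is named after its value was seen. It was at 63.8 and 61.9 CPM with zymosan, against 265 and 262 CPM with DMSO, a log2 change of -2.07 ± 0.042.

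Of 19 tested Egr, Nr4a and other immediate early genes, 15 were at least 2-fold higher and 0 lower (10 and 1 by library totals alone), with a median of 1.90; without DMSO library 1 there was 1 lower. The list holds the orphan nuclear receptor genes of the Nr4a family. Nr4a1 stood at 1742 and 1734 CPM with zymosan, against 46.4 and 48.02 CPM with DMSO, and Nr4a2 at 74.96 and 75.9 CPM with zymosan, against 1.25 and 1.18 CPM with DMSO. Neither gene's groups came near each other, with log2 changes of 5.203 ± 0.042 and 5.95 ± 0.104. Arc (6.04), the growth regulator Myc (3.34) and Egr3 (2.42) rose as well.

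Lineage factors moved less and both ways, in shares no higher than those of all genes (19.2% higher and 17.4% lower by at least 2-fold). Of 17 tested granulocyte lineage factors, 3 were at least 2-fold higher and 2 lower, with a median of 0.52 that was -0.18 by library totals alone. The 3 rises became 5 without DMSO library 2 and 6 without zymosan library 2, as several members lie close to 2-fold. Ets2 stood at 1880.2 and 1798 CPM with zymosan, against 226 and 224 CPM with DMSO, and the repressor Gfi1 at 11.98 and 11.9 CPM with zymosan, against 1.601 and 1.54 CPM with DMSO. Cebpd, a C/EBP factor of the acute phase, was at 32.97 and 29.04 CPM with zymosan, against 152 and 159 CPM with DMSO. The groups did not overlap in any of these, with log2 changes of 3.03 ± 0.034, 2.92 ± 0.14 and -2.34 ± 0.051. Fli1 fell (-1.21).

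All 6 factors that the series removed in other cells were called higher with zymosan in WT cells, against 35.7% of all genes tested. Junb, an AP-1 subunit, was at 2381 and 2229.6 CPM with zymosan, against 851 and 948 CPM with DMSO, and Cebpb, a C/EBP factor, at 1071 and 938 CPM with zymosan, against 479 and 536 CPM with DMSO. The groups stayed apart in both genes, with log2 changes of 1.36 ± 0.0401 and 0.98 ± 0.0598. Relb changed by 1.67, Runx1 by 1.38, Klf6 by 1.01 and Irf5 by 0.81. Among these, 4 of 6 passed 2-fold with TMM and 0 of 6 by library totals alone, where all 6 were still called higher with a median of 0.48. Of 8 tested interferon regulatory factors 2 were at least 2-fold higher, Irf4 (3.43) and Irf1 (1.31), and 1 lower, Irf2 (-1.398), with a median of 0.071 (1 and 3, with a median of -0.63, by library totals alone).

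Cytokine genes had the highest median rise of the lists examined. Of 23 tested cytokines, 18 were at least 2-fold higher and 0 lower, with a median log2 change of 3.80, or 3.40 when genes with almost no DMSO reads were put at their bound. In TPM, a level per transcript length with the same total in every library, Il1b was the most abundant of them with zymosan, at a mean of 14126 TPM, against 2672 TPM with DMSO. It stood at 10449 and 10248 CPM with zymosan, against 1178 and 1177 CPM with DMSO. Il1rn, which encodes the natural antagonist of the interleukin-1 receptor, stood at 9643 and 9428 CPM with zymosan, against 694 and 677 CPM with DMSO. Thus the agonists Il1a and Il1b and their antagonist were all high together in both zymosan libraries, with log2 changes of 7.32 ± 0.044, 3.14 ± 0.032 and 3.798 ± 0.033.

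Several cytokine genes were close to silent without zymosan. Csf3, which encodes G-CSF, the growth factor of neutrophils, was at 234 and 244 CPM with zymosan, where it held 11890 read pairs, against 3 read pairs with DMSO. The ratio was 6494-fold, with a 95% counting interval of 2222 to 31497. Csf2, which encodes GM-CSF, had 754 read pairs with zymosan, against 1 read pair with DMSO, a ratio of 1236-fold (221 to 48865). Ifnb1, which encodes interferon beta, had 239 read pairs with zymosan, against 3 read pairs with DMSO, a ratio of 131-fold (44.1 to 638). Il12b, with 36 read pairs with zymosan against 2 read pairs with DMSO, had a ratio of 29.5-fold (7.59 to 253). These intervals cover counting error only, and in each gene both zymosan libraries were above both DMSO libraries.

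Among cytokine genes of low level, the regulatory Il10 rose beside Il6 and Il12a. Il10, which restrains macrophages and dendritic cells, was at 30.2 and 32.9 CPM with zymosan, against 0.118 and 0.103 CPM with DMSO. Il6 was at 6.27 and 7.74 CPM with zymosan, against 0.0471 and 0.0514 CPM with DMSO. Il12a, which encodes the shared p35 subunit of interleukin-12 and interleukin-35, was at 16.1 and 16.3 CPM with zymosan, against 1.25 and 0.8998 CPM with DMSO. The log2 changes of these low but separated genes were 8.0998 ± 0.196, 7.03 ± 0.35 and 3.902 ± 0.14. Clcf1 (3.399), Il19 (2.69) and Il4 (2.54) rose at low levels, and Csf1 (1.61) and Osm (1.55) at higher ones. Il18 did not pass the test at 0.072. Ifng, Il17a and Il33 had no read in any of the 4 libraries, and Il13 had too few to be tested. Il15 (0.32) and Il27 (0.497) were called higher, and their changes were -0.38 and -0.20 by library totals alone. Tgfb1 rose by 0.88 and Ebi3 by 0.74, and by library totals alone their changes were 0.18 and 0.033, where Ebi3 did not pass the test.

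**Figure D2:**
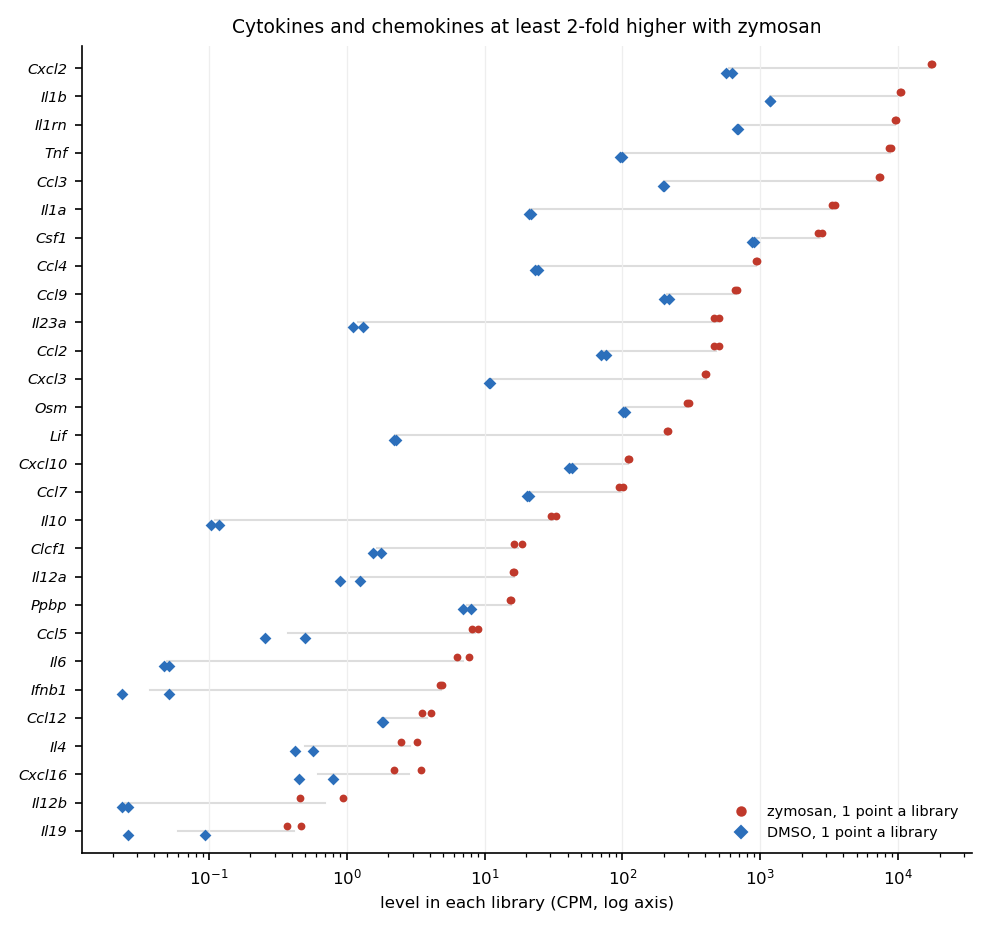
Levels (CPM, log axis) of the 28 cytokine and chemokine genes that were called, at least 2-fold higher with zymosan and above 0 in all 4 libraries, ordered by their zymosan level. Red circles are the 2 zymosan libraries and blue diamonds the 2 DMSO libraries of each gene. No gene's groups overlap, as in 86.94% of all genes tested, and Il23a, Tnf and Il1a show wide gaps at high levels.

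Chemokine genes rose almost without exception. Of 15 tested, 14 were at least 2-fold higher and 0 lower, with a median of 2.72. Cxcl2, the neutrophil attractant whose promoter is shown above, was at 17393 and 17492 CPM with zymosan, against 619 and 560.0 CPM with DMSO. Ccl3 and Ccl4, attractants of monocytes and lymphocytes, were at 7376 and 7218 CPM and 935 and 943 CPM with zymosan, against 202 and 198 CPM and 24.5 and 23.2 CPM with DMSO. The 3 genes were far higher in both zymosan libraries, with log2 changes of 4.89 ± 0.039, 5.19 ± 0.037 and 5.298 ± 0.044. Per transcript length Ccl3 was the most abundant chemokine of the zymosan libraries, at a mean of 24796 TPM beside 21957 TPM for Cxcl2.

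Cxcl1 was the rarest of the 3 neighbouring Cxcl genes, at a mean of 7.66 TPM with zymosan, where Cxcl3 was at 299 TPM. Cxcl1 had 275 read pairs with zymosan, against 0 with DMSO, so it was at least 150.2-fold higher, taking 3 read pairs over the group as the floor. Cxcl3 was at 406 and 397 CPM with zymosan, against 10.99 and 10.8 CPM with DMSO, a log2 change of 5.202 ± 0.053. Ccl22 had 26 read pairs with zymosan, against 0 with DMSO, at least 14.2-fold higher. Ccl5 (4.48), Ccl2 (2.72), Ccl7 (2.25), Cxcl16 (2.21), Ccl9 (1.66), Cxcl10 (1.38), Ccl12 (1.08) and Ppbp (1.05) made up the other rises. Ccl6 was called slightly lower, at 350.2 and 336 CPM with zymosan and 381 and 369.6 CPM with DMSO, and did not pass the test without DMSO library 1, with RLE scaling or with DESeq2. By library totals alone Ccl12 did not pass it, at 0.38. The 10 other chemokine genes of the list had too few reads to be tested, namely Ccl17, Ccl20, Ccl24, Cx3cl1, Cxcl5, Cxcl9, Cxcl11, Cxcl12, Cxcl13 and Xcl1.

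Growth factor genes followed the cytokines, and the TNF superfamily did so in part. Of 12 tested growth factors, 9 were at least 2-fold higher and 0 lower, with a median of 2.51. The epidermal growth factor receptor ligands Areg and Ereg were at 199.7 and 210.5 CPM and 119 and 125 CPM with zymosan, against 2.24 and 1.85 CPM and 1.08 and 1.39 CPM with DMSO. Both ligands were near the bottom of the range with DMSO, with log2 changes of 6.64 ± 0.078 and 6.63 ± 0.097. Hbegf (5.78), Gdf15 (5.34), the activin subunit gene Inhba (4.78) and Pdgfb (2.93) rose too. Of 15 tested TNF superfamily ligands and receptors, 7 were at least 2-fold higher and 1 lower, with a median of 0.63 that was -0.07 by library totals alone. Tnfsf15 stood at 10.8 and 11.4 CPM with zymosan, against 0.0942 and 0.0257 CPM with DMSO, and the receptor gene Tnfrsf1b at 4593 and 4411 CPM with zymosan, against 995 and 1018 CPM with DMSO. Ltb, a lymphotoxin subunit, was the one that fell, at -1.71.

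Inhibitors of the response were induced beside its activators. Of 19 tested feedback inhibitors, 12 were at least 2-fold higher and 3 lower, with a median of 1.56 (7 higher and 4 lower by library totals alone). Tnfaip3, which encodes the ubiquitin-editing enzyme A20, a brake on NF-kB, was at 4187 and 4145 CPM with zymosan, against 142 and 135 CPM with DMSO. Zc3h12a, which encodes regnase-1, a nuclease for cytokine transcripts, was at 772 and 726 CPM with zymosan, against 56.3 and 59.1 CPM with DMSO. Irak3, a kinase-like inhibitor of Toll-like receptor signalling, was at 622 and 601 CPM with zymosan, against 103 and 105 CPM with DMSO. All 3 were several times higher in both zymosan libraries, with log2 changes of 4.91 ± 0.038, 3.698 ± 0.039 and 2.56 ± 0.038. Zc3h12c (4.55), Tnip3 (3.59), Socs1 (2.77), Cish (2.08), Tnip1 (1.696), Trib1 (1.5998), Peli1 (1.56), N4bp1 (1.53) and Trib3 (1.03) rose too, though Trib3 did not pass the test by library totals alone, at 0.33.

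Some inhibitors went the other way. Zfp36l2, which marks transcripts for decay, was at 51.5 and 50.4 CPM with zymosan, against 380.5 and 381 CPM with DMSO. Tnfaip8l2 was at 4.62 and 3.89 CPM with zymosan, against 44.5 and 42.8 CPM with DMSO. These falls held in both libraries, with log2 changes of -2.902 ± 0.041 and -3.37 ± 0.087, and Tnip2 fell too (-1.25). Zfp36, the decay factor tristetraprolin, and Zfp36l1 are relatives of Zfp36l2 and changed by 0.76 and -0.28, and Cyld, a deubiquitinase, by -0.31. Socs2 had too few reads to be tested. Socs3 was at 441 and 436 CPM with zymosan and 391 and 421 CPM with DMSO, a change of 0.11 that was -0.59 by library totals alone and did not pass the test without DMSO library 1.

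Dual-specificity phosphatases switch off MAP kinases. Of 12 tested, 9 were at least 2-fold higher and 1 lower, with a median of 2.55. Dusp2 was at 415 and 396 CPM with zymosan, against 9.79 and 9.56 CPM with DMSO, and Dusp5 at 589.6 and 562 CPM with zymosan, against 68.1 and 68.9 CPM with DMSO. Zymosan libraries lay well above DMSO libraries in both, with log2 changes of 5.39 ± 0.057 and 3.07 ± 0.039. Dusp14 had 133 read pairs with zymosan, against 3 with DMSO, a ratio of 72.6-fold (24.3 to 357). Dusp4 (5.83), Dusp8 (4.89) and Dusp16 (2.77) rose too. Dusp6, specific for the kinase ERK and named after its value was seen, was the one that fell, to 38.8 and 34.8 CPM with zymosan, against 187 and 187 CPM with DMSO.

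The receptors that guide and restrain neutrophils divided into rises and falls. Of 16 tested chemoattractant receptors, 5 were at least 2-fold higher and 5 lower, with a median of 0.33 (2 and 6, with a median of -0.38, by library totals alone). Ccrl2, a receptor that binds chemerin without signalling, was at 5281 and 5146 CPM with zymosan, against 170.3 and 166 CPM with DMSO. Ptafr, the receptor for platelet activating factor, was at 1352 and 1294 CPM with zymosan, against 244 and 243 CPM with DMSO. Their log2 changes were 4.96 ± 0.036 and 2.44 ± 0.034, the highest of the list. The largest fall was that of Cxcr2, given above, at -3.79 ± 0.036. C5ar2, the second receptor for complement C5a, was at 17.1 and 16.6 CPM with zymosan, against 86.2 and 84.6 CPM with DMSO. Ccr2, a receptor for monocyte-attracting chemokines, was at 46.97 and 53.3 CPM with zymosan, against 221 and 204 CPM with DMSO. In both of these the zymosan libraries lay below the DMSO libraries, with log2 changes of -2.34 ± 0.059 and -2.08 ± 0.047.

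**Figure D3:**
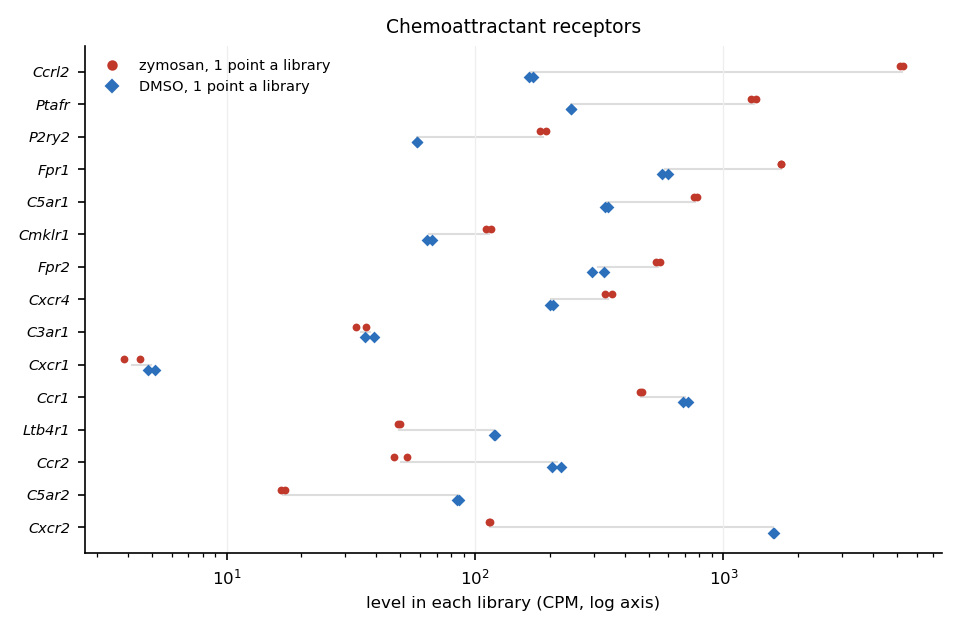
Levels (CPM, log axis) of 15 of the 16 chemoattractant receptor genes tested, from the largest rise at the top to the largest fall at the bottom. Red circles are the 2 zymosan libraries and blue diamonds the 2 DMSO libraries of each gene; Ccrl2 is far to the right with zymosan and Cxcr2 far to the left, while the groups of C3ar1 overlap.

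Of 21 tested cytokine and growth factor receptors, 8 were at least 2-fold higher and 5 lower, with a median of 0.48 (2 and 8, with a median of -0.22, by library totals alone). The chain Il10ra, which gives a cell its answer to interleukin-10, was at 66.8 and 68.8 CPM with zymosan, against 14.6 and 14.7 CPM with DMSO. Il1r2, a decoy receptor for interleukin-1, was at 739.9 and 701 CPM with zymosan, against 269 and 275 CPM with DMSO. Both were higher in both zymosan libraries, with log2 changes of 2.21 ± 0.064 and 1.404 ± 0.035. Il4ra was at 145 and 148 CPM with zymosan, against 593 and 616 CPM with DMSO, and Ifngr1 at 94.2 and 92.3 CPM with zymosan, against 341 and 332 CPM with DMSO. Csf3r, the G-CSF receptor on which the culture relies, was at 1346 and 1323 CPM with zymosan, against 2993 and 3134 CPM with DMSO. These 3 fell in both libraries, with log2 changes of -2.04 ± 0.036, -1.85 ± 0.038 and -1.199 ± 0.031.

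Adhesion genes moved both ways, near the shares over all genes. Of 17 tested, 4 were at least 2-fold higher and 3 lower, against 19.2% and 17.4% of all genes, with a median of 0.0005. By library totals alone 3 were higher and 5 lower, with a median of -0.70. Icam1, the ligand of leukocyte integrins, was at 1649 and 1609 CPM with zymosan, against 141 and 145 CPM with DMSO, and the hyaluronan receptor Cd44 at 3021 and 3005 CPM with zymosan, against 759 and 725 CPM with DMSO. Selplg, a selectin ligand used in rolling on vessel walls, was at 187 and 181 CPM with zymosan, against 546 and 578 CPM with DMSO. Icam1 and Cd44 rose by 3.51 and 2.02, and Selplg changed by -1.61. Vcl (1.82) and Ninj1 (1.56) rose, and Jaml changed by -1.88.

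Of 13 tested activation and co-stimulation surface genes, 9 were at least 2-fold higher and 0 lower, with a median of 1.93. Cd274, which encodes PD-L1, was at 986 and 989 CPM with zymosan, against 60.5 and 60.4 CPM with DMSO, a log2 change of 4.03 ± 0.039. Cd83 (4.07), Cd69 (3.72), Slamf7 (2.82), Icosl (2.499) and Pdcd1lg2 (2.42), which encodes PD-L2, rose as well. Among 8 tested Fc receptor and complement genes, 1 was at least 2-fold higher, the rare complement gene Cfb (2.62), and 1 lower, or 2 lower without zymosan library 2, with a median of 0.041 (1 and 3, with a median of -0.66, by library totals alone). Fcgr3, a low-affinity receptor for IgG, was the one lower, at 129.9 and 125 CPM with zymosan, against 367 and 366 CPM with DMSO.

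Effector genes were tested in several lists. The inflammasome list had 4 of 12 tested genes at least 2-fold higher and 2 lower, with a median of -0.16 (3 and 5, with a median of -0.86, by library totals alone). Nlrp3, the sensor that activates caspase-1, was at 3208 and 3265 CPM with zymosan, against 281 and 294 CPM with DMSO. Its adaptor Pycard was at 25.1 and 24.2 CPM with zymosan, against 64.8 and 61.6 CPM with DMSO, and Nlrp12 at 9.05 and 7.95 CPM with zymosan, against 105 and 109 CPM with DMSO. The sensor was up and the other genes down in every library of their group, with log2 changes of 3.49 ± 0.035, -1.36 ± 0.059 and -3.66 ± 0.063. Mefv (3.28), Casp4 (2.17) and Nlrc4 (1.68) rose.

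Of 15 tested genes for eicosanoid and histamine synthesis, 6 were at least 2-fold higher and 1 lower, with a median of 0.22 (3 and 3, with a median of -0.48, by library totals alone); without DMSO library 2 there was 0 lower. Ptgs2, the inducible cyclooxygenase, was at 6515 and 6825 CPM with zymosan, against 183 and 168 CPM with DMSO. Hdc, which makes histamine, was at 1589 and 1533 CPM with zymosan, against 340.3 and 353 CPM with DMSO. Both rose in both libraries, by 5.25 ± 0.039 and 2.17 ± 0.033. Hpgds (1.84), Ptges (1.28) and Ptges3 (1.11) rose too.

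Of 11 tested inflammatory metabolic enzymes, 9 were at least 2-fold higher and 0 lower, with a median of 1.74 (5 higher by library totals alone). Acod1, which makes itaconate, was at 10375 and 10141 CPM with zymosan, against 702 and 723 CPM with DMSO. Gch1, which starts the synthesis of tetrahydrobiopterin, was at 404 and 362 CPM with zymosan, against 23.5 and 25.8 CPM with DMSO. Zymosan and DMSO libraries did not overlap in either gene, with log2 changes of 3.85 ± 0.033 and 3.96 ± 0.049. Sphk1 (3.93), Odc1 (2.94), Nampt (2.25) and Nos2 (1.07) rose too.

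Every tested gene of the plasminogen system and matrix remodelling list rose. All 12 were at least 2-fold higher, under TMM and by library totals alone, with a median of 3.17. Thbs1, the matrix protein thrombospondin, was at 18061 and 18878 CPM with zymosan, against 1135 and 1164 CPM with DMSO. F3, tissue factor, which starts coagulation, was at 254 and 258 CPM with zymosan, against 8.12 and 6.38 CPM with DMSO. Serpinb2, an inhibitor of plasminogen activators, was at 532 and 552 CPM with zymosan, against 20.2 and 18.3 CPM with DMSO. The zymosan libraries were an order of magnitude above the DMSO libraries in each, with log2 changes of 4.01 ± 0.034, 5.14 ± 0.061 and 4.81 ± 0.046. The collagenase gene Mmp13 (4.79) and Plau (3.25) rose too.

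Genes of the preformed neutrophil armament changed little. Of 8 tested azurophil granule genes 0 passed 2-fold in either direction, with a median of -0.43, while 6 were lower by at least 2-fold by library totals alone. Of 10 tested gelatinase granule and mature neutrophil genes 0 passed 2-fold either way (3 lower by library totals alone, 1 lower without zymosan library 2). Among 10 tested specific granule genes Slpi, a protease inhibitor, was higher at 1.08 and Hp, haptoglobin, lower at -1.02, with a median of 0.33 that was -0.37 by library totals alone. Hp was at 795 and 751 CPM with zymosan, against 1557 and 1589 CPM with DMSO, and it was under 2-fold without DMSO library 2 or zymosan library 2. Among 7 tested NADPH oxidase genes Cybb, the catalytic subunit, was at 408 and 439 CPM with zymosan, against 204 and 203 CPM with DMSO, and the other members were under 2-fold. The median of these 7 genes was -0.009. By library totals alone 0 of them were at least 2-fold higher and 1 lower, with a median of -0.71.

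Survival genes rose beside death genes. Of 23 tested, 10 were at least 2-fold higher and 3 lower, with a median of 0.87 (8 and 8, with a median of 0.16, by library totals alone). The anti-apoptotic Bcl2a1 genes led, with Bcl2a1d at 253 and 249 CPM with zymosan, against 5.53 and 4.47 CPM with DMSO. Bcl2a1a and Bcl2a1b changed by 4.84 and 4.47; these near-identical copies can trade reads, so their separate values are uncertain. Bcl2l11, the pro-apoptotic BIM, was at 1784 and 1787 CPM with zymosan, against 137 and 134 CPM with DMSO. Cflar, an inhibitor of caspase-8, was at 1256 and 1317 CPM with zymosan, against 161 and 147 CPM with DMSO. Protective and death-promoting members were thus higher in the same zymosan libraries, with log2 changes of 5.64 ± 0.061, 3.72 ± 0.036 and 3.07 ± 0.038. Gadd45b, a stress regulator, changed by 4.498. Of 22 tested cell cycle genes 4 were at least 2-fold higher, among them the inhibitor Cdkn1a (2.54) and Pcna (2.48), and 1 lower, Ccnd3 (-1.91), with a median of 0.57 that was -0.13 by library totals alone.

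Antioxidant and iron genes were high with zymosan. Of 17 tested NRF2 and antioxidant genes, 9 were at least 2-fold higher and 1 lower, with a median of 1.53; without DMSO library 2 or zymosan library 1 there was 0 lower. Slc7a11, the cystine importer, was at 7290.5 and 7544 CPM with zymosan, against 429 and 400.2 CPM with DMSO. Sqstm1, which encodes p62, an activator of NRF2, was at 7198 and 6762 CPM with zymosan, against 458 and 476 CPM with DMSO. Both rose in both libraries, by 4.16 ± 0.036 and 3.901 ± 0.035, and so did Srxn1 (4.01), Txnrd1 (3.44), Sod2 (3.08) and Gclc (2.71). Of 6 tested iron genes 4 were higher and 1 lower (2 and 2 by library totals alone). Fth1, ferritin heavy chain, was at 15692 and 14685 CPM with zymosan, against 5215 and 5233 CPM with DMSO, and per length it was at a mean of 45645 TPM with zymosan, against 26107 TPM with DMSO. Tfrc (2.501), the transferrin receptor, rose and the exporter gene Slc40a1 (-1.26) fell.

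Energy metabolism showed modest changes. Of 19 tested glycolysis genes, 4 were at least 2-fold higher and 2 lower, with a median of 0.80 (0 and 2, with a median of 0.10, by library totals alone). Ldha, lactate dehydrogenase, was at 1823 and 1718 CPM with zymosan, against 579.8 and 591 CPM with DMSO, and the glucose transporter Slc2a1 at 1101 and 1070.3 CPM with zymosan, against 354 and 351 CPM with DMSO. Pfkfb4, a regulator of the pathway, went the other way, at 25.4 and 24.3 CPM with zymosan, against 157 and 166 CPM with DMSO. Their log2 changes were 1.597 ± 0.033, 1.62 ± 0.033 and -2.703 ± 0.049. Of 11 tested hypoxia response genes, 5 were at least 2-fold higher and 0 lower, with a median of 0.92 (1 and 1 by library totals alone), led by Ero1l (2.01). Of 21 tested oxidative phosphorylation genes 0 passed 2-fold in either direction, with a median of -0.10 (7 lower by library totals alone).

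The call of most ribosomal protein genes depended on the scaling. Of 20 tested cytosolic ribosomal protein genes all 20 were called higher, against 35.7% of all genes tested, with a median of 0.57. By at least 2-fold 1 of the 20 was higher, against 19.2% of all genes. By library totals alone 3 were called higher and 13 lower, with a median of -0.13. Of 21 tested ribosome biogenesis genes 8 were at least 2-fold higher and 1 lower (2 and 3 by library totals alone, where the median of 0.52 became -0.18), led by Nop56 (1.95) and Gnl3 (1.74). Of 13 tested heat shock and chaperone genes 7 were at least 2-fold higher and 0 lower (2 higher by library totals alone). Hspa5, the chaperone of the endoplasmic reticulum, was at 1227 and 1181 CPM with zymosan, against 340.4 and 347 CPM with DMSO. Of 8 tested amino acid transporters 6 were at least 2-fold higher, with a median of 1.31 (2 by library totals alone). Slc3a2, the heavy chain that partners Slc7a11, was at 924 and 902 CPM with zymosan, against 162 and 169.6 CPM with DMSO.

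Of 16 tested genes for cholesterol synthesis and export, 8 were at least 2-fold higher and 2 lower, with a median of 1.04 (4 and 3, with a median of 0.34, by library totals alone, and 1 lower without zymosan library 1). Insig1, which restrains sterol synthesis, was at 398 and 387 CPM with zymosan, against 35.5 and 35.2 CPM with DMSO. It rose in both libraries, by 3.47 ± 0.041, as did the exporter gene Abca1 (2.22) and Idi1 (2.12), an enzyme of isoprenoid synthesis. Of 18 tested lysosome and V-ATPase genes, 4 were at least 2-fold higher and 1 lower (0 lower without DMSO library 2), with a median of 0.67 that was -0.03 by library totals alone. Atp6v1h (1.88) and Atp6v1a (1.53), subunits of the proton pump, and the protease gene Ctsz (1.698) rose, and Tfeb, a master regulator of lysosome genes, was at 23.96 and 22.8 CPM with zymosan, against 45.5 and 51.3 CPM with DMSO.

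Interferon stimulated genes stayed near the bulk of genes at 2 h, while Ifnb1 was higher. Of 26 tested, 2 were at least 2-fold higher, the guanylate-binding protein genes Gbp5 (2.14) and Gbp2 (1.18), and 0 lower, with a median of -0.13 (1 and 11, with a median of -0.83, by library totals alone, and 1 lower without zymosan library 2). Ifit1, a typical target of type I interferon, was at 35.4 and 42.4 CPM with zymosan, against 73.6 and 76.3 CPM with DMSO. Irgm1 and Trim30a changed by -0.91 and -0.91.

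**Figure D4:**
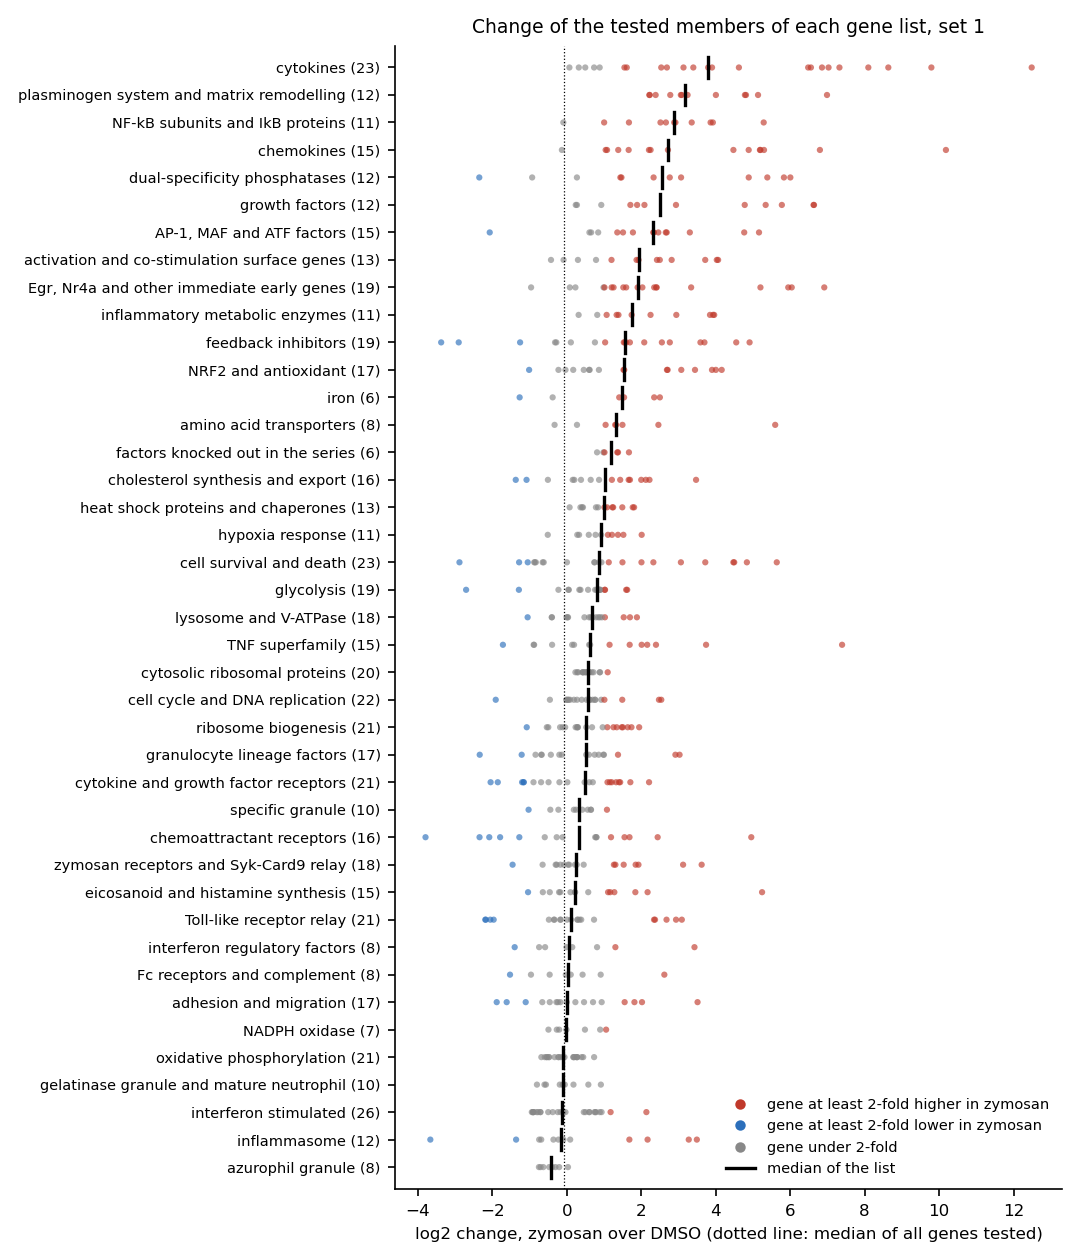
Each point is a tested gene of the list named at the left, with its log2 change (zymosan over DMSO) across; numbers in brackets give the tested genes of a list. Black bars are list medians and the dotted line is the median of all 12899 genes, -0.07; cytokines lie highest with a median of 3.80 and azurophil granule genes lowest with -0.43. By library totals alone the dotted line stands at -0.77.

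Neutrophil markers identified the cells in every library. S100a8 and S100a9, the major cytosolic proteins of neutrophils, were at 6725 and 7170.1 CPM and 8241 and 8063 CPM with zymosan, against 8212 and 6711 CPM and 8575 and 8323 CPM with DMSO, and Ly6g at 36.998 and 38.2 CPM with zymosan, against 40.1 and 41.1 CPM with DMSO. Of 14 tested neutrophil markers, 3 were called higher and 7 lower, against 35.7% and 39.9% of all genes tested. Of the lower ones 3 were so by at least 2-fold, against 17.4% of all genes, and the list's median was -0.15. By library totals alone 0 were called higher and 13 lower, with a median of -0.85. Those called at least 2-fold lower include Cxcr2 and Csf3r, given above. S100a8, S100a9 and Ly6g did not pass the test, with log2 changes of -0.103, -0.052 and -0.11, though S100a8 was called lower at -0.22 without DMSO library 2 and at -0.15 without zymosan library 2. TPM carry no TMM scaling, so their sums run with library totals alone. Neutrophil markers summed to 74691 and 76629 TPM with zymosan, against 142076 and 133759 TPM with DMSO. The genes highest per length also included Fth1, Ftl1, Gm23935 and the stefin genes Stfa1, Stfa2, Stfa2l1 and Gm5483, copies of one another whose separate values are uncertain.

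Markers of other cells were present at lower levels. The 12 eosinophil, basophil and mast cell markers summed to 4021 and 4283 TPM with zymosan, against 8604 and 8699 TPM with DMSO, mostly from Prg2, an eosinophil granule protein. Monocyte and macrophage markers summed to 768 and 803 TPM with zymosan, against 1193 and 1245 TPM with DMSO, and 3 of 9 tested were at least 2-fold higher and 2 lower (1 and 3 by library totals alone). Dendritic cell and MHC class II markers summed to 393 and 401 TPM with zymosan, against 215 and 222 TPM with DMSO, nearly all Cd74, with Ccr7 at 0. Of 5 tested 4 were at least 2-fold higher, with a median of 3.02 (3 higher, with a median of 2.34, by library totals alone), and 1 lower, which did not pass the test without DMSO library 1 or zymosan library 2. H2-Aa had 171 read pairs with zymosan, against 2 with DMSO, a ratio of 140.1-fold (38.2 to 1166). Progenitor markers summed to 50.8 and 55.1 TPM with zymosan, against 83.2 and 91.8 TPM with DMSO. Erythroid and platelet markers summed to 191 and 232 TPM with zymosan, against 147 and 150.0 TPM with DMSO, and lymphocyte markers to 2.26 and 1.82 TPM with zymosan, against 3.26 and 3.04 TPM with DMSO, with Pax5 and Cd3e at 0. The part of these cells in the changes of other lists was not tested.

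Set 2 gave the same comparison in libraries that share none with set 1. There, 9418 of 13779 genes tested (68.4%) were called, and 4010 (29.1%) by at least 2-fold, 2208 of them higher (16%) and 1802 lower (13.1%). Of 12395 genes tested in both, 2274 rose by at least 2-fold in set 1 and 2017 in set 2, and 1577 in both, which is 69.3% of the set 1 list and 78.2% of the set 2 list. Falls numbered 2191 in set 1 and 1673 in set 2, with 1251 in both, which is 57.1% and 74.8% of the lists. Across genes, which are not independent replicates, the changes of the sets had a Pearson correlation of 0.843 and a Spearman correlation of 0.823. The sets are separate count tables, and any difference in day, culture or preparation that goes with them cannot be told apart from the set. Each table was counted and scaled by itself, so levels are given within a table. Gapdh, which has near-identical copies elsewhere in the genome and is named after its values were seen, was at 2461 and 2409 CPM with zymosan and 1584 and 1689.9 CPM with DMSO in set 1, and at 151 and 151 CPM with zymosan and 32.2 and 31.5 CPM with DMSO in set 2. Its values are uncertain, as are those of other genes with such copies. Whether reads of such copies were counted alike in both sets was not tested, so set differences of these genes are uncertain too.

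The difference between the responses was tested as an interaction in the 8 WT libraries, scaled together, so a tested difference can depart slightly from the difference of the changes within the sets. Of 13804 genes tested 5334 (38.6%) differed, and 1312 (9.50%) did so by at least 2-fold, 902 with the higher change in set 1 (6.53%) and 410 with the lower (2.97%). The largest differences among well-measured genes were in Gadd45g and Tnf. Tnf stood at 8897 and 8604 CPM with zymosan and 95.4 and 100.1 CPM with DMSO in set 1, and at 6976 and 6797 CPM with zymosan and 506 and 497 CPM with DMSO in set 2. Gadd45g, a growth arrest gene, stood at 57.4 and 50.7 CPM with zymosan and 9.18 and 8.74 CPM with DMSO in set 1, and at 8.83 and 8.75 CPM with zymosan and 10.1 and 10.3 CPM with DMSO in set 2. Tnf thus rose in both sets, by 6.48 ± 0.039 in set 1 and 3.78 ± 0.019 in set 2, a tested difference of 2.84 ± 0.048 with an adjusted p of 6.4e-49. Gadd45g rose in set 1, by 2.59 ± 0.075, and did not pass the test in set 2, at -0.21 ± 0.101, with a tested difference of 2.94 ± 0.13 and an adjusted p of 7.9e-29. Ahnak (2.83), Baiap2 (2.48), Klhl21 (2.43), Fzd5 (2.33) and Dusp2 (2.24) differed in the same direction.

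In other genes the change was lower in set 1. Nos2, inducible nitric oxide synthase, stood at 521 and 538 CPM with zymosan and 246 and 258 CPM with DMSO in set 1, and at 706 and 694 CPM with zymosan and 58.8 and 58.6 CPM with DMSO in set 2. Its change was 1.07 ± 0.034 in set 1 and 3.58 ± 0.026 in set 2, a tested difference of -2.37 ± 0.052 with an adjusted p of 4.5e-43. Gys1, muscle-type glycogen synthase, changed by -0.35 in set 1 and 2.24 in set 2, a tested difference of -2.46. The transglutaminase gene Tgm1 changed by -2.75 in set 1 and -0.24 in set 2, a tested difference of -2.37. The 10 genes that went at least 2-fold opposite ways in the sets are named after their values were seen. Dusp18, Fam214a, Gm42809, Mex3b, Sema7a, Sgk1, Shb and Slc30a1 rose in set 1 and fell in set 2, and Ddx28 and Gpr141b fell in set 1 and rose in set 2.

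Genes of sugar metabolism and of sterol synthesis were among those that differed between the sets. Of 19 glycolysis genes 4 rose by at least 2-fold in set 1, against 12 in set 2, with medians of 0.80 in set 1 and 1.59 in set 2; 4 of them differed by at least 2-fold, all lower in set 1. They were Pfkl, Pfkp, Tpi1 and Gapdh, the last of them uncertain as given above. The counts and medians of the list include Gapdh, and the other members were not checked for near-identical copies. Pfkl, phosphofructokinase of the liver type, stood at 412 and 395 CPM with zymosan and 191 and 205 CPM with DMSO in set 1, and at 653 and 643 CPM with zymosan and 116 and 111 CPM with DMSO in set 2. Of 11 hypoxia response genes 5 rose by at least 2-fold in set 1, against 9 in set 2, and 5 differed by at least 2-fold, all lower in set 1, among them Ero1l (2.01 in set 1 and 3.79 in set 2). Of 16 cholesterol genes 8 rose by at least 2-fold in set 1, against 4 in set 2, and 6 differed by at least 2-fold, all higher in set 1. Insig1 changed by 3.47 in set 1 and 1.53 in set 2, a tested difference of 2.09 ± 0.055. Lists outside metabolism differed by at least 2-fold too. Of 23 cytokines 8 were higher in set 1 and 0 lower, and of 12 dual-specificity phosphatases 5 and 1. Of 19 immediate early genes 6 were higher in set 1 and 2 lower. Of 8 azurophil granule genes 0 were higher and 3 lower, and of 11 eosinophil, basophil and mast cell markers 0 and 4. Beside these counts stand the shares over all genes, 2.97% lower and 6.53% higher in set 1.

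**Figure D5:**
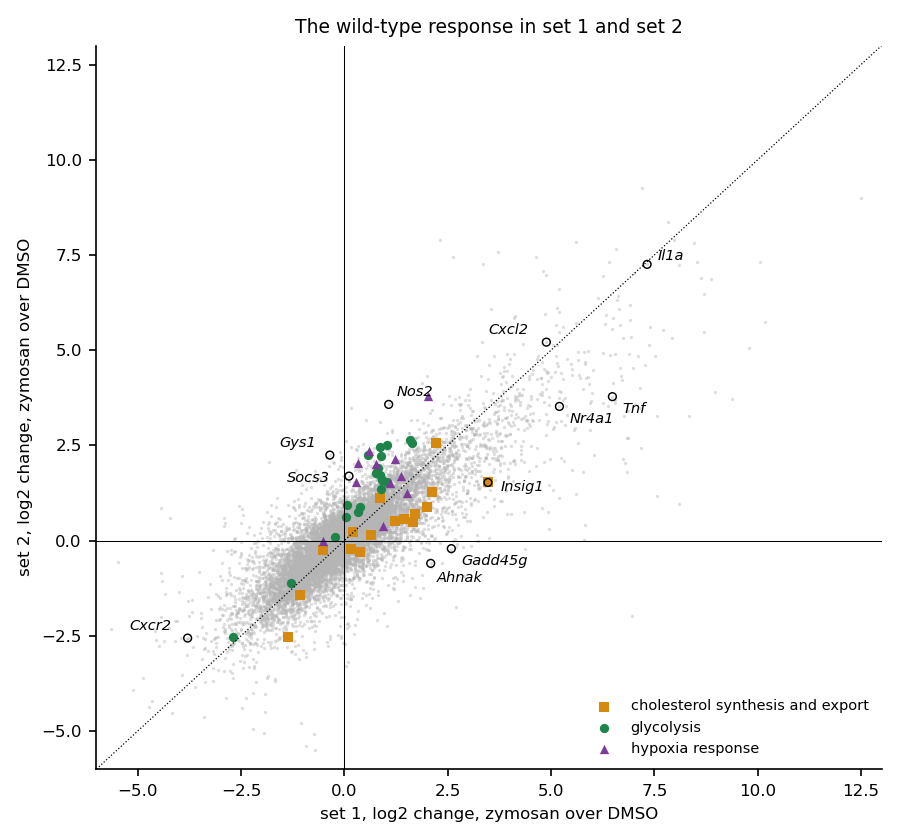
Log2 change (zymosan over DMSO) of genes tested in both sets, set 1 across and set 2 upward, with the line of equal change dotted; both axes run over the same range. Green circles are glycolysis genes and purple triangles hypoxia response genes, most of them above the line; orange squares are cholesterol genes, most of them below it, and open circles mark named genes, with Tnf at 6.48 in set 1 and 3.78 in set 2.

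Genes that zymosan raised in culture were compared with open chromatin of neutrophils from the air pouch, a pouch of skin given zymosan in the mouse. In the authors' deposited table of sites more open in pouch exudate than in blood, which assigns a gene to each of 2834 sites, 464 of the 2481 raised genes had a site (18.7%). The same table held a site for 124 of the 2239 lowered genes (5.54%) and for 1308 of all 12899 genes tested (10.1%). Raised genes made up 35.5% of the tested genes with such a site. In the authors' deposited table of 1086 sites less open in exudate than in blood, the shares were 5.08% of raised genes, 4.73% of lowered genes and 5.02% of all genes tested. With bone marrow in place of blood, a comparison chosen after seeing the data, the authors' deposited table of 4683 sites more open in exudate held 23.3% of raised genes, 8.93% of lowered genes and 14.3% of all genes tested. Cells, dose and time differ between culture and pouch, and the shares are given as a description with no test.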

How the data were processed

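PolyA-selected RNA was sequenced as 150-base read pairs. Per the labels and the submitters' processing notes, reads were aligned to mm10 with STAR and counted per gene with featureCounts. The header of the set 1 counts gives version 1.6.3, a mapping quality of 255 or more and strand setting 2. These settings were not compared with those of set 2. The deposited values used here are raw counts; gene lengths in the same deposited tables gave TPM. The site tables carry the authors' own −log10 p-value and log2 columns, from which only the assigned genes were used. Of the set 1 table, 18 columns were not used, 10 of them sums of other columns.

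Counts were filtered with filterByExpr (count minimum 10, total minimum 15, share 0.7), scaled with TMM and tested with edgeR 4.0.16 quasi-likelihood fits in R 4.3.3 over 12 libraries per set (6 groups), or over the 8 WT libraries for the set difference. Adjusted p under 0.05 was the threshold. The fit was tested on simulated data. Symbols were present for 50376 of 50600 gene IDs (99.56%). Of 689 listed genes 687 matched and 639 were tested.

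Members and lists were chosen with earlier results of these data known. Named genes are the 15 largest rises and falls with mean log2 CPM of at least 4, every member of 5 lists (cytokines, chemokines, NF-kB, feedback inhibitors, zymosan receptors), up to 6 called members per other list, the 10 genes highest in TPM, the knocked-out factors and the 10 largest set differences; some genes are not reported here. Promoters came from RefSeq (GRCm38.p6), and 73.0% of tested genes had one, below 80%. The planned comparison of motif shares between raised, lowered and all genes is therefore void and not given. Match counts of named lists describe those genes only. Alternatives were RLE and total-count scaling, DESeq2 1.42.0, no filter, WT libraries alone, a replicate block and leaving out each library. Figures used matplotlib 3.10.9 in Python 3.11.15. Depth, 22242143 to 28012996 read pairs a library, limits the precision of genes with few reads.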

Additional observations from a re-analysis of the deposited data

Results flagged for a closer look

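The responses of the WT cells in set 1 and set 2 differed, by the test of the difference itself, in 1312 genes by at least 2-fold (9.50% of 13804). Each value below is the log2 change in set 1 minus that in set 2, for the named genes that passed the same bounds.

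The change was higher in set 1 for the cytokine genes Tnf (2.84), Il23a (1.89) and Lif (1.81), for the nuclear receptor genes Nr4a1 (1.82) and Nr4a3 (1.27) and for the phosphatase genes Dusp2 (2.24) and Dusp4 (1.28). It was also higher for Gadd45g (2.94), Ahnak (2.83), Baiap2 (2.48), Klhl21 (2.43), Fzd5 (2.33), Gm6377 (1.56), Plk2 (1.29), Nfkbiz (1.19) and Bcl2a1d (1.05).

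The change was lower in set 1 for Gys1 (-2.46), Nos2 (-2.37) and Tgm1 (-2.37). The same held for genes among the largest falls, namely Sema6b (-1.31), AI467606 (-1.25), Txnip (-1.13), Nlrx1 (-1.11), Cxcr2 (-1.09), Tor4a (-1.09) and Gpr146 (-1.07). Set and any batch that goes with it cannot be told apart.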

How the results depend on the processing

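Scaling mattered most. By library totals alone, set 1 had 2418 genes higher and 8261 lower (1395 and 5185 by at least 2-fold), and set 2 had 1830 higher and 9365 lower (902 and 5665 by at least 2-fold). The higher share of calls in set 1 was 53.2% with RLE. Of the 4720 genes called at 2-fold or more in set 1, 3634 were shared with total-count scaling and 4330 with RLE; the 2-fold bound left 4010 genes in set 2 and 1312 for the set difference.

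By library totals alone these named genes changed sign: Clec7a -0.25, Syk -0.48, Fcer1g -0.43, Socs3 -0.59, Il15 -0.38, Il27 -0.20, Fcgr2b -0.28, Cyba -0.21, Camp -0.050, Lcn2 -0.14, Olfm4 -0.055, Adam8 -0.12, Stfa2 -0.25, Stfa2l1 -0.52, Gm5483 -0.38, Rpl8 -0.030, Myb -0.10 and Itga2b -0.36, and of genes that had not passed the test Itgb2 -0.64, Itgam -0.67 and Il18 -0.63. With RLE and with DESeq2, changes of sign were Prkcd 0.051, Bcl3 0.035, S100a8 0.024, S100a9 0.075 and Stfa1 0.086. Itgam was -0.017 with no filter on low counts. Calls lost by library totals alone were those of Ebi3 (0.033), Trib3 (0.33), Ccl12 (0.38), Zfp36 (0.055), Gata1 (0.072), Ltc4s (0.47), Mx2 (0.24), Uqcrfs1 (0.034), Ch25h (1.06) and Rplp0 (0.017). Of the named log2 changes, 312 kept direction and call by library totals alone, 332 with DESeq2, 337 with RLE and 343 in WT libraries alone, and all 10 named set differences did so under every alternative run.

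Leaving out 1 library at a time gave 9009 to 9359 genes called in set 1 (4253 to 4547 higher, 4756 to 4835 lower; by at least 2-fold 2407 to 2587 higher and 2130 to 2182 lower). Set 2 gave 8699 to 8938 (4067 to 4703 higher, 4221 to 4678 lower; by at least 2-fold 1883 to 2210 and 1789 to 2111). The set difference gave 4632 to 5196 (2114 to 2799 higher, 2007 to 2974 lower; by at least 2-fold 663 to 879 and 388 to 520), and its higher share, 57.6%, was 42.8% to 44.9% without any 1 DMSO library. DESeq2 called 8720 genes in set 1.

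No effect shared by libraries of the same replicate number was seen, as correlations of same-numbered deviations lay between -0.033 and 0.066. Such values cannot show that the samples were unpaired. With a replicate block set 1 had 9688 calls, set 2 had 9375 and the set difference 5313; it changed no named call except that of Itgb2. Leaving out 1 library changed the sign of Bcl3 (-0.155 to 0.014), S100a8 (-0.22 to 0.071), Stfa1 (-0.14 to 0.11), Il18 (-0.065 to 0.25) and Itgam (-3.15e-06 to 0.081), none of which had passed the test. Among genes at least 4-fold higher, 20.8% had a site more open in exudate than blood and 3.96% one less open; among those at least 4-fold lower, 4.39% had a more open site. Against bone marrow, less open sites were held by 9.11% of raised and 9.42% of lowered genes. With 2 libraries a side, genes of few reads and changes near 2-fold are the least certain.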

Other observations

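Of 7 tested progenitor markers 2 were at least 2-fold higher and 0 lower, and by library totals alone 0 were higher and 1 lower. Among progenitor markers, Kit, the receptor for stem cell factor, was at 8.003 and 8.85 CPM with zymosan, against 2.68 and 3.599 CPM with DMSO, and Cd34 was at 6.08 and 5.72 CPM with zymosan, against 8.81 and 8.25 CPM with DMSO. Kit rose (1.44) while Cd34 fell (-0.54). Hoxb8, the gene that defines the line and was looked at outside the naming rule, was at 42.3 and 45.6 CPM with zymosan and 44.6 and 48.1 CPM with DMSO; its reads may come from the construct as well as from the mouse gene.

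Macrophage markers divided too. Ms4a7 (1.89), the mannose receptor gene Mrc1 (1.55) and Adgre1 (1.004), which encodes F4/80, rose, and the fractalkine receptor gene Cx3cr1 (-1.63) fell. Eosinophil ribonuclease genes Ear2 and Ear6, near-identical copies, were at 43.8 and 47.5 CPM and 68.2 and 73.4 CPM with zymosan, against 95.8 and 88.3 CPM and 167 and 157 CPM with DMSO. Siglecf (-0.47) and the mast cell protease gene Cpa3 (-0.901) fell, and the regulator gene Gata1 changed by 0.77, which did not pass the test without zymosan library 1. Pf4, a platelet chemokine and the main part of the erythroid and platelet sum, was at 51.6 and 62.3 CPM with zymosan, against 23.5 and 23.2 CPM with DMSO, a log2 change of 1.29 ± 0.072.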
